A study of Mus musculus with 2 samples.

Results

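Mir143 and Mir145a are neighbouring microRNA genes on mouse chromosome 18, known above all from smooth muscle. They were chosen by name and position, with earlier results of these data known, and make up 2 of the 1973 microRNA loci in the count tables. Small-RNA libraries were made from facial prominences, the swellings of mesenchyme and covering epithelium that form the face, of B6NCrl mouse embryos at embryonic day 11.5. There was 1 group with 2 biological replicates, each pooled from male and female embryos, 109 for replicate 1 and 88 for replicate 2. No treatment or mutation is given in the labels. Because whole tissue of many embryos was pooled, the values carry no information on single embryos or cell types, and fewer cells of a type cannot be told apart from less RNA per cell.

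A microRNA gene is transcribed as part of a longer RNA, cut to a hairpin and then to a short mature strand that guides the silencing of messenger RNAs. The Mir143 and Mir145a hairpins are known to come from 1 primary transcript that serum response factor and its partner myocardin switch on in smooth muscle. There the mature microRNAs favour the contractile over the proliferating state. Known targets are Klf4 and Klf5 for miR-145 and Elk1 for miR-143, all of them transcription factors of the proliferating state. Outside muscle, the genes are known from fibroblasts and other mesenchymal cells.

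In the count tables Mir143 is ENSMUSG00000065445.2 and Mir145a is ENSMUSG00000065592.1. In GENCODE M21, on the GRCm38 (mm10) assembly, the Mir143 hairpin spans positions 61649196 to 61649258 of chromosome 18 on the minus strand, 63 bases in all. The Mir145a hairpin spans 61647825 to 61647894 on the same strand and has 70 bases. Mir143 therefore comes before Mir145a in the direction of transcription, with 1301 bases between them. Neither hairpin overlaps another GENCODE M21 gene. The long non-coding RNA gene Carmn, known from heart and smooth muscle, ends 366 bases before Mir143 in that annotation (61649625 to 61665537, minus strand). RefSeq draws Carmn longer, from 61645878 to 61665538, so that its span takes in both hairpins. The long non-coding RNA gene Bvht, known from heart development, lies on the plus strand 352 bases beyond Mir145a.

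**Figure D1:**
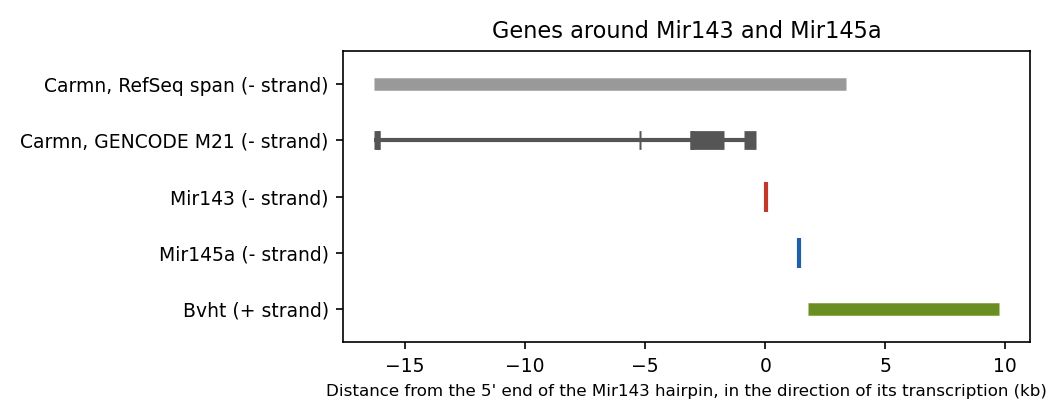
Genes around the pair, with distance from the 5′ end of the Mir143 hairpin in kb on the horizontal axis and 1 feature per line. Thick blocks on the GENCODE Carmn line are its exons; Mir143 and Mir145a lie beyond its last exon but within the RefSeq span, 1301 bases apart.

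Mir143 was among the most abundant microRNA loci of the facial prominence, and Mir145a stood far below it. Mir143 had 25570 sense counts in replicate 1 and 32907 in replicate 2. Scaled to the sense counts at all loci (CPM, where all sense counts of a library sum to 1000000), these were 13169 CPM (95% exact binomial interval 13009 to 13330) and 14185 CPM (14033 to 14338). Mir145a had 421 and 682 sense counts, or 217 CPM (197 to 239) and 294 CPM (272 to 317). Both loci passed the detection limit of at least 10 counts in both libraries, which 17.8% of all loci passed. All these intervals cover counting error only and leave out the spread between the pools. No molecular identifiers were named in the labels, so amplified copies of 1 molecule may be counted more than once and the intervals may be too narrow.

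By mean level Mir143 took place 17 of the 1973 loci, at 13677 ± 719 CPM (SD, n = 2). It ranked 20 in replicate 1 and 16 in replicate 2. Mir145a took place 164, at 255 ± 54.6 CPM (SD, n = 2), with ranks of 172 and 159. The spread between the libraries was 5.25% of the mean for Mir143 and 21.4% for Mir145a. The libraries held 1941745 and 2319881 sense counts, so that 1 count stood for 0.515 and 0.431 CPM. Neither locus had any count on the opposite strand in either library.

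**Figure D2:**
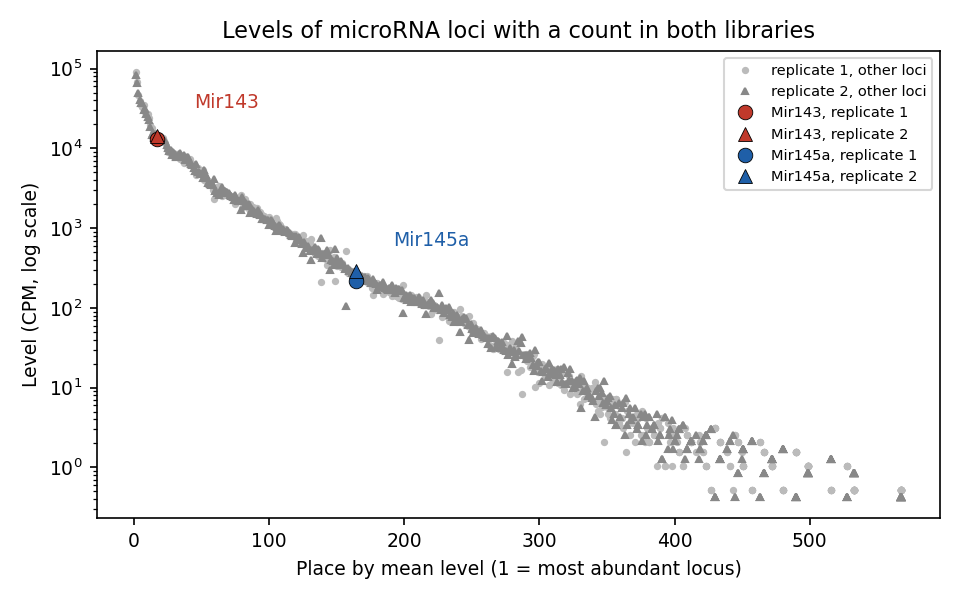
Level in CPM (log scale) against place by mean level for every locus with a count in both libraries, circles for replicate 1 and triangles for replicate 2. Mir143 sits on the steep upper part of the curve at place 17, and Mir145a at place 164, at 217 and 294 CPM.

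Places next to each member could not be told apart from it. Mir183 and Mir182, of a sensory-cell cluster, stood just above Mir143 at 14050 ± 534 and 13855 ± 1842 CPM (SD, n = 2). Mir100 and Mir652 stood just below at 13668 ± 636 and 13608 ± 1205 CPM. Each of these 4 loci lay above Mir143 in 1 library and below it in the other. The same held for the 4 loci around Mir145a, namely Mir330, Mir185, Mir493 and Mir500, whose mean levels lay between 252 and 282 CPM.

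Likeness of level over the 2 libraries was measured as the distance in log2(CPM + 1). For Mir143 the nearest loci were Mir100 (distance 0.01), Mir182 (0.12) and Mir183 (0.14). Mir100, a member of a let-7 cluster on chromosome 9, had 25666 and 32751 counts, nearly those of Mir143 in each library. For Mir145a the nearest were Mir493 (0.10) and Mir485 (0.21), both of the imprinted region on chromosome 12, and the X-linked Mir18b (0.29). With only 2 libraries this measure describes level and says little of a shared pattern.

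Within the pair, Mir143 exceeded Mir145a by 60.7-fold in replicate 1 and 48.3-fold in replicate 2. On the log2 scale the difference was 5.92 (95% exact binomial interval 5.79 to 6.07) and 5.59 (5.48 to 5.70), with a mean of 5.76 ± 0.23 (SD, n = 2). The smaller of these values is far above the log2 ratio between the replicates for either locus, 0.11 for Mir143 and 0.44 for Mir145a. Put as a share, Mir145a held 1.62% (1.47 to 1.78) of the pair's counts in replicate 1 and 2.03% (1.88 to 2.19) in replicate 2. The ratio of counts at 2 loci also depends on the ligation, amplification and unique placement of each sequence, whose part was not tested. Counts are given per locus and not per length, the hairpins being of similar length.

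The difference itself was smaller in replicate 2, by -0.33 on the log2 scale. Its 95% interval from counting error alone was -0.51 to -0.16. With the spread between the pools added, as estimated by edgeR over 363 loci (common coefficient of variation 16.7%), the interval was -1.29 to 0.63. The change in the ratio within the pair was therefore larger than counting error. Whether it exceeds the usual spread between pools cannot be decided, because that spread was estimated from the same 2 libraries. The wider interval also treats the members as varying independently.

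Mir145b, which by name is a relative of Mir145a, lies elsewhere on chromosome 18 (69022199 to 69022273, minus strand). It had 0 counts on both strands in both libraries, and a count of 0 leaves room for 1.55 CPM (replicate 1) or 1.29 CPM (replicate 2), the level of 3 counts. Reads that fit several positions were kept out of the counts per locus by the authors and made up 22.7% and 20.5% of all reads. How many of them came from Mir145a was not tested, so its level may be incomplete.

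Unequal counts were common among neighbouring microRNA loci. Neighbours were defined as adjacent loci on 1 strand at most 10 kb apart, of which the higher had a mean count of at least 10, and 0.5 counts were added to each count. Of 145 such pairs, 52 (35.9%) differed by over 32-fold in both libraries, and Mir143 with Mir145a was 1 of them. By size of the mean difference it took place 47, so 46 pairs were more unequal. Many of those have a member at or near 0. The 3 most unequal were Mir3070b with Mir431 (-13.72 ± 2.02, SD, n = 2, on the log2 scale), Gm22678 with Mir467d (-12.87 ± 0.18) and Mir137 with Gm24155 (12.36 ± 0.04). A negative value means that the locus first in the direction of transcription was the lower.

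When both members had to reach a mean count of at least 10, a limit chosen after the values were seen, 22 of 99 pairs (22.2%) passed 32-fold. Mir143 and Mir145a then took place 18, against a median absolute difference of 2.55 over the 99 pairs. The 3 most unequal of these were Mir411 with Mir1197 (9.61 ± 0.23), Mir20a with Mir19b-1 (9.27 ± 0.31) and Mir99a with Mirlet7c-1 (9.16 ± 0.09). The upstream locus was the higher in 51 of the 99 pairs, and in 15 of the 22 past 32-fold. Mir143 is also the upstream locus of its pair. The difference within the pair was thus within the range of counts seen among other neighbours, in size and in direction. Reads placed at several positions were not counted, which can lower a locus whose sequence has copies elsewhere. How many of these pairs were made unequal in that way was not tested. Adjacent pairs can also share a locus, as Mir20a with Mir19b-1 and Mir19b-1 with Mir92-1 do.

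The neighbours closest in size of difference were Mir23a with Mir27a just above (5.82 ± 0.14) and, with both members at a mean count of at least 10, Mir487b with Mir539 just below (5.58 ± 0.00). Without that requirement the place below was taken by Mir669m-2 with Mir466n, of which the former had 0 and 1 counts (-5.62 ± 1.02). Mir23a and Mir27a, on chromosome 8, had 18693 and 308 counts in replicate 1 and 21695 and 410 in replicate 2. The sequence reference used held no mature strand of Mir143 or Mir145a, so those of the members are not shown. The mature strands of Mir23a and Mir27a from RefSeq (GRCm38.p6, plus strand) are shown instead, as the pair most like the members in this measure. They also serve as an example because neighbours in a cluster need not be copies of each other. Capitals mark the seed, bases 2 to 8, which selects the targets; no seed of Mir23a equals a seed of Mir27a. The counts per locus do not tell which strand they came from.
mmu-miR-23a-5p: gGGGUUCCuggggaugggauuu
mmu-miR-23a-3p: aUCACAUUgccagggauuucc
mmu-miR-27a-5p: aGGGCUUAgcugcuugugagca
mmu-miR-27a-3p: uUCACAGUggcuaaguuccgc

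**Figure D3:**
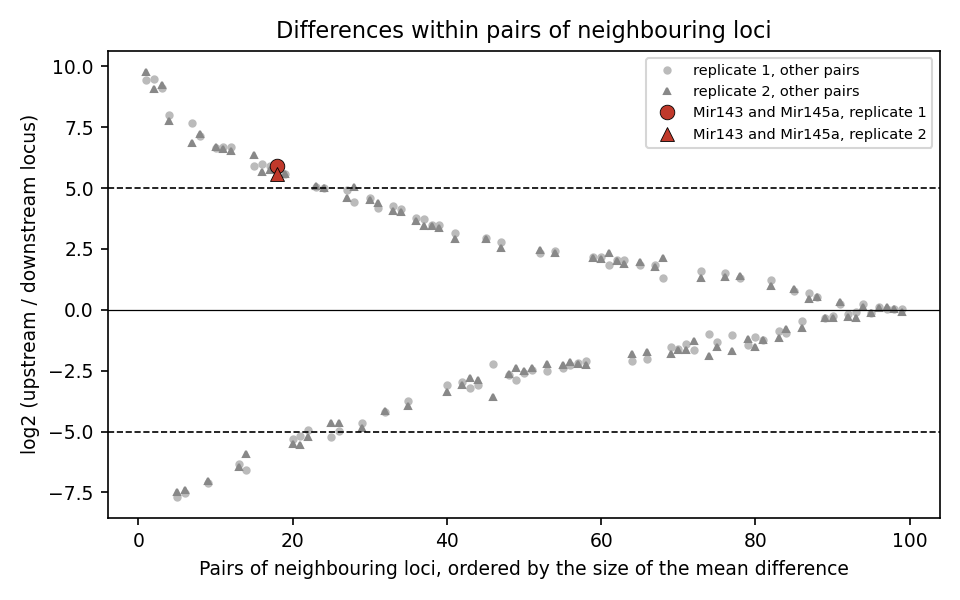
The log2 ratio of the upstream to the downstream locus in 99 neighbour pairs with both members at a mean count of at least 10, ordered by size of the mean difference, circles for replicate 1 and triangles for replicate 2. Dashed lines mark 32-fold; Mir143 with Mir145a lies at place 18 with 5.92 and 5.59, among pairs that are unequal in either direction.

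On its chromosome the pair held nearly all sense counts at microRNA loci, 98.6% in replicate 1 and 98.3% in replicate 2. Of the 50 loci matched to chromosome 18, 5 reached at least 10 counts in both libraries. After Mir143 and Mir145a these were Mir187 at 167 ± 21.1 CPM, the hepatocyte locus Mir122 at 30.0 ± 19.8 CPM and Mir1948 at 14.3 ± 4.18 CPM (SD, n = 2). Within 1 Mb of the pair the tables held 5 other loci, of which Mir7220 had 1 count in each library, Mir6983 had 2 and 0, and Mir5107, Mir6982 and Gm25301 had 0 on the sense strand. These shares leave out counts on the opposite strand, of which Gm25301 had 9199 in replicate 1 and 11095 in replicate 2. They lie on the strand of Mir378a, a minus-strand gene at that position without an entry of its own. With them counted the pair's shares would be well below these values, since the pair itself had 25991 counts in replicate 1 and 33589 in replicate 2.

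The pools differed little in Mir143 and more in Mir145a. The log2 ratio of replicate 2 to replicate 1 was 0.11 for Mir143 (95% exact binomial interval 0.08 to 0.13), or 1.08-fold. For Mir145a it was 0.44 (0.26 to 0.62), or 1.36-fold. With the edgeR dispersion added to counting error, the intervals widened to -0.56 to 0.78 for Mir143 and -0.25 to 1.13 for Mir145a. Both therefore lay above 0 by counting error alone, and neither by the spread between libraries. Neither member differed by over 2-fold, whereas 5 of the 257 loci averaging 100 counts or more (1.95%) did.

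Over these 257 loci the absolute log2 ratio had a median of 0.14, and 130 (50.6%) of them were higher in replicate 2. The ratio of Mir143 was larger in size than that of 102 loci and the ratio of Mir145a larger than that of 234. Compared with loci of like level (within 2-fold of its mean), Mir143 lay in the middle: 16 of 32 had a larger absolute ratio. Of 75 loci near Mir145a in level, 8 had a larger one, and their median absolute ratio was 0.19. Mir145a was thus toward the wider end of the spread for its level.

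**Figure D4:**
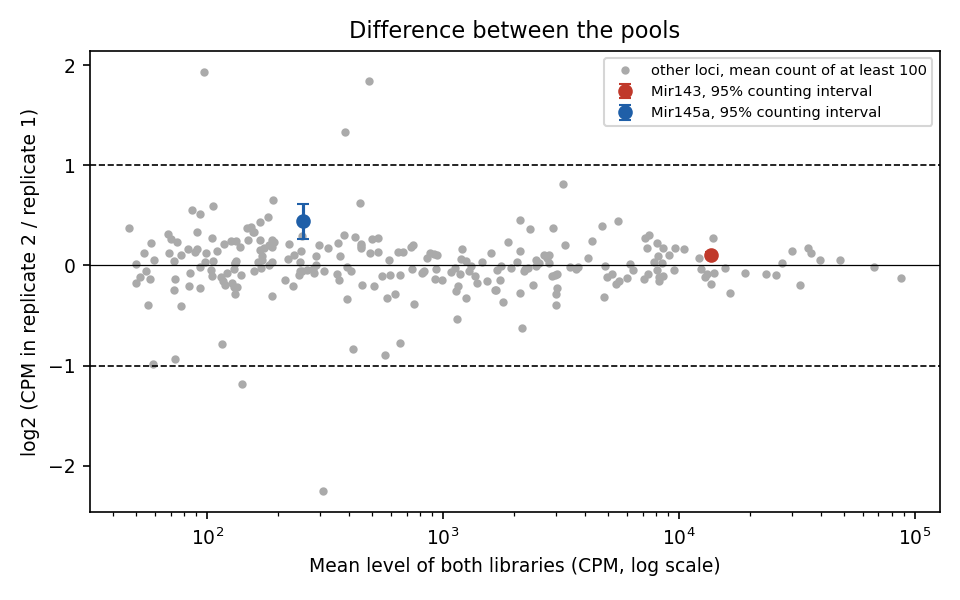
The log2 ratio of CPM in replicate 2 to replicate 1 against mean level (CPM, log scale) for the 257 loci averaging 100 counts or more, with 95% counting intervals for the members. Mir143 at 0.11 and Mir145a at 0.44 lie inside the dashed lines that mark 2-fold.

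The name smooth muscle could be checked only against other microRNA loci, since protein-coding markers were not analysed here. Of 20 listed loci known to act in smooth muscle cells, the pair included, 18 were measured and 14 reached at least 10 counts in both libraries. Mir143 was the second of them by mean level, behind Mir23b at 27019 and 27398 CPM. Mir100 was level with it, just above in replicate 1 and just below in replicate 2. Mir21a, known for promoting growth of vascular smooth muscle, followed at 8627 and 7752 CPM. Mir221 and Mir222, which are known to favour the proliferating state, stood at 253 and 237 CPM and at 131 and 135 CPM. Mir145a was level with Mir221, with a log2 difference of 0.04 ± 0.38 (SD, n = 2) whose sign turned between the libraries. Mir133a-1 and Mir133a-2, also known from smooth and striated muscle, had 0 counts in both libraries, but these copies share sequence and reads placed at several positions were not counted. None of the listed loci is restricted to smooth muscle.

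Beside 12 other mesenchymal loci Mir143 was second to Mir214, a locus of the Dnm3os transcript in mesenchyme. Mir214 stood at 28519 and 31478 CPM, and Mir143 was lower by a log2 difference of -1.13 ± 0.02 (SD, n = 2). The cartilage locus Mir140, at 8912 and 8262 CPM, lay below Mir143 by 0.67 ± 0.15, and Mir22 stood at 3690 and 3607 CPM. Mir145a lay above 7 of these 12 other loci, whose median was 169 CPM. Mir199a-2, the neighbour of Mir214, stood close to Mir145a at 205 and 238 CPM, but has copies elsewhere. Other loci below Mir145a in this list are also numbered copies, of Mir199a and Mir29b. Reads placed at several positions were not counted, so the levels of these copies and the median may be too low.

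Loci that mark other cell types gave both higher and lower levels than the pair. Mir126a, the endothelial locus in Egfl7, exceeded Mir143 in both libraries at 39037 and 40424 CPM. All 7 epithelial loci lay below Mir143 and above Mir145a, with Mir429 at 8563 and 7915 CPM, Mir205 at 8166 and 7933 CPM, Mir203 at 6297 and 5758 CPM and Mir200c at 5322 and 4265 CPM. All 8 measured striated muscle loci lay below Mir143 and 6 of them below Mir145a. The erythroid, leukocyte and neural lists had no locus above Mir143, and 1 of 2, 1 of 4 and 2 of 9 measured loci above Mir145a. The leukocyte count rests on sense counts: Mir142b had 0 of them, but opposite-strand counts equal to 933 and 905 CPM, above Mir145a. Reads placed at several positions were not counted, which can lower loci with copies elsewhere. All 7 neural loci below Mir145a are numbered copies of Mir9, Mir124a or Mir128. Among the striated muscle loci below it are copies of Mir1a and Mir133a. How far the levels of these copies were lowered in this way was not tested.

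**Figure D5:**
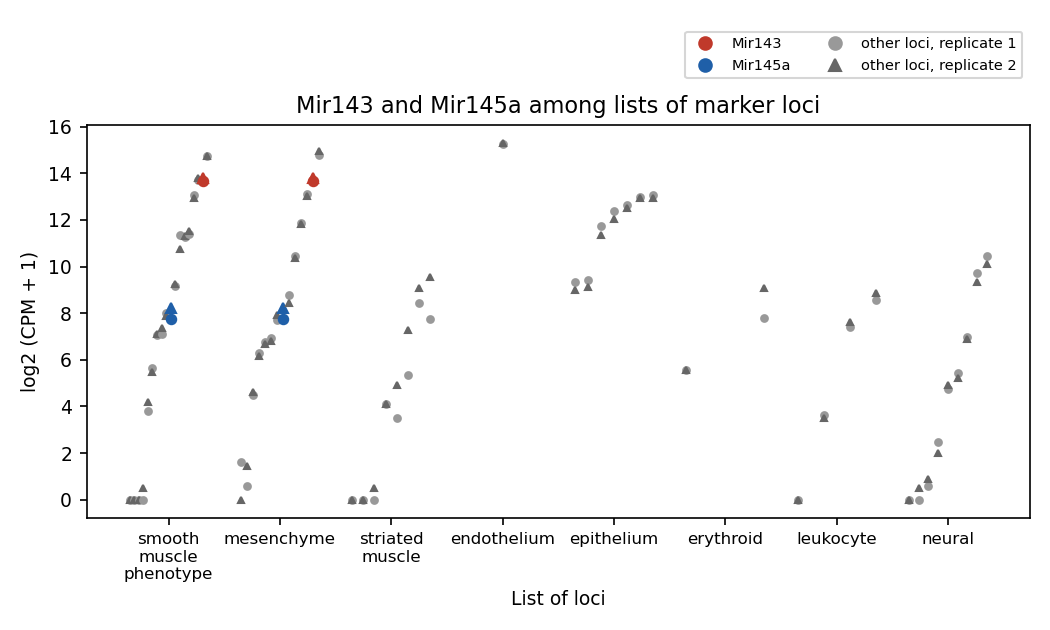
Level as log2(CPM + 1) of each measured locus in 8 lists, ordered by level within a list, circles for replicate 1 and triangles for replicate 2. By mean level Mir143 is the second highest of the smooth muscle and mesenchyme lists, and Mir145a lies in the middle of both. In the smooth muscle list Mir100 lies just above Mir143 in replicate 1 and just below it in replicate 2.

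Some loci of these lists were, like Mir145a, higher in replicate 2, and others were not. In the striated muscle list the 3 loci averaging 100 counts or more were all higher in replicate 2, against 50.6% of all 257 such loci. They were Mir208b at 212 and 758 CPM, Mir206 at 350 and 537 CPM and Mir208a at 40.2 and 153 CPM. The list's summed share was 0.0628% and 0.149% of sense counts, with Mir133a-1 and Mir133a-2 at 0. Below 100 counts, Mir499 had 10.3 and 29.3 CPM, while Mir133b had 16.0 and 15.9 CPM. The erythroid share was 0.0264% and 0.0593%, with Mir451a at 218 and 547 CPM but Mir144 at 46.4 and 45.7 CPM. Of loci averaging 100 counts or more, 2 of 2 leukocyte and 0 of 3 neural ones were higher in replicate 2. Without the pair, the smooth muscle list took 5.78% and 5.76% of sense counts, and 7 of its 10 loci averaging 100 counts or more were higher in replicate 2 (median log2 ratio 0.05, against 0.01 over all 257 loci). In the mesenchymal list without the pair 2 of 9 were higher, Mir214 and Mir199a-2 (median -0.11), and in the epithelial list 0 of 7 (median -0.28). The part of muscle tissue or blood in the higher Mir145a count of replicate 2 was not tested.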

How the data were processed

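Raw counts for each microRNA gene on mm10 with GENCODE M4 were deposited by the authors, as the accompanying text files state; which aligner and counter they ran is not given in the sources used here. The tables have counts irrespective of strand, sense counts (used here) and opposite-strand counts. Reads assigned to no gene did not enter library sizes: unmapped reads were 30.9% and 38.6%, reads placed at several positions 22.7% and 20.5%, and reads at no locus 5.51% and 6.75% of 4755968 and 6781929 reads.

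Symbols and positions (1-based) came from GENCODE M21 on the same assembly, matched without identifier versions (1894 of 1973 loci). The versions of both members differ between M4 and M21, so the hairpin ends counted may differ slightly.

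With 1 group there was no test between conditions. Counting intervals were exact (Clopper-Pearson, 95%). Intervals with dispersion were normal approximations using an intercept-only edgeR model. The libraries differed by more than sampling noise (chi-square 14731, 362 degrees of freedom). The labels number them as biological replicates but give the same donor entry. Steps were tested on simulated data. Alternatives changed strand, scaling, count minimum, cluster distance, pseudocount and library.

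Named loci were the members, the 3 nearest in level, the leading loci of each list (up to 4) and loci within 1 Mb. The most unequal and adjacent neighbour pairs were named too. The part of the rule on shared seeds was not applied, because the sequence reference held no mature strand of the members. Mir145b, Mir133b, Mir133a-1, Mir133a-2, Mir221, Mir222, Mir199a-2, the loci of adjacent rank, the detected loci of chromosome 18, the pair of printed sequences and the loci set against the members in pairs were chosen after values were seen. The gene families named for their copies were also chosen after values were seen. Members and lists were chosen with earlier results of these data known. Versions were edgeR 4.0.16, DESeq2 1.42.0, R 4.3.3, scipy 1.17.1, pandas 2.3.3, numpy 2.4.6, matplotlib 3.10.9 and Python 3.11.15.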

Additional observations from a re-analysis of the deposited data

Results flagged for a closer look

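Opposite-strand counts, not used in the comparisons above, were high at 1 locus within 1 Mb of the pair. Gm25301 (chromosome 18, 61397813 to 61397925, plus strand) had 0 sense counts, but 9199 opposite-strand counts in replicate 1 and 11095 in replicate 2, far over the limit of 3 counts. Relative to the sense total these are 4737 and 4783 CPM, a level between those of Mir143 and Mir145a. In GENCODE M21 the minus-strand gene Mir378a (61397835 to 61397900) lies within this span. Mir143 and Mir145a had 0 opposite-strand counts in both libraries.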

How the results depend on the processing

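Of 38 values recomputed under other settings for 8 results, 32 stayed within the spread between the libraries, the counting interval or 1.5 times the count. Some of these could not have come out otherwise. With n = 2, leaving out 1 library always keeps the levels, the log2 difference and the share within the SD. Ignoring strand cannot change the log2 difference, since neither member had opposite-strand counts. Scaled to all reads of a library, Mir143 stood at 5114 CPM, Mir145a at 94.5 CPM and the pair's share at 0.521%, against 1.39% ± 0.0773 (SD, n = 2) of sense counts; this follows from the larger denominator and leaves the ratio within the pair as it was. Requiring a mean count of at least 10 for both neighbours lowered the pairs past 32-fold from 52 of 145 (35.9%) to 22 of 99 (22.2%); by construction it leaves out pairs with a member near 0. The loci past 2-fold between the pools numbered 13 at a minimum mean count of 20 and 3 at a minimum of 500. With 1 library left out, Mir143 ranged from 13169 to 14185 CPM, Mir145a from 217 to 294 CPM, their log2 difference from 5.59 to 5.92, the share from 1.34% to 1.45% and the pairs past 32-fold from 56 to 59. TMM and DESeq2 scaling gave ratios between the pools of 0.11 for Mir143 and 0.44 for Mir145a. No paired analysis was possible because there is only 1 group. The spread between the libraries limits the precision of the ratio within the pair more than the depth does. The SD of this ratio is 0.23 on the log2 scale. Its change between libraries spans -1.29 to 0.63 with dispersion, estimated from these same libraries, against -0.51 to -0.16 from counting alone.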
